A study of Mus musculus with 2 samples.

Results

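Meis, Pbx and Pknox genes encode homeodomain transcription factors of the TALE class, named for extra residues in a loop of the homeodomain. PBX proteins bind DNA together with HOX proteins, and MEIS and PKNOX proteins bind the N-terminal part of PBX and keep it in the nucleus. In the hindbrain such complexes act with HOX proteins on genes that set the identity of segments and of the neurons that arise from them. The 8 genes described here are Meis1, Meis2, Meis3, Pbx2, Pbx3, Pbx4, Pknox1 and Pknox2, chosen by name and found by Ensembl identifier among 43346 genes in the tables. They carry 80 of the 103639 annotated transcripts of genes. Their Ensembl identifiers are ENSMUSG00000020160 for Meis1, ENSMUSG00000027210 for Meis2, ENSMUSG00000041420 for Meis3, ENSMUSG00000034673 for Pbx2, ENSMUSG00000038718 for Pbx3, ENSMUSG00000031860 for Pbx4, ENSMUSG00000006705 for Pknox1 and ENSMUSG00000035934 for Pknox2. Further genes of these families are not analysed here.

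RNA came from whole hindbrain of healthy B6NCrl mouse embryos at embryonic day 15.5, with no treatment or mutation named in the labels. Both libraries belong to 1 group and are biological replicates (n = 2). Tissue of 78 embryos was pooled for replicate 1 and of 62 for replicate 2, with both sexes mixed. The input was 10 ng of RNA above 200 nt, to which known spike-in transcripts were added. There was no contrast between conditions, so the data answer how strongly each cofactor gene was expressed, in which transcript forms, and how far the 2 pools differed. Because each library pools many embryos, the spread between libraries is not that between embryos.

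Estimated counts summed over genes came to 40020322 (replicate 1) and 43263959 (replicate 2). All 7 genes of a hindbrain marker list (Hoxa2, Hoxb2, Hoxa3, Hoxb3, Gbx2, Atoh1 and Lmx1a) reached 1 TPM in both libraries. So did 2 of 11 forebrain, 5 of 6 midbrain, 5 of 10 caudal Hox and 5 of 6 sensory ganglion markers. Of all nuclear protein-coding genes 63.1% did, so these counts alone do not tell which tissues were present. TPM is a relative abundance corrected for length, so levels of different genes can be set side by side. Levels are mean ± SD over the 2 libraries (n = 2). In whole tissue, fewer cells that make a transcript and less of it per cell cannot be told apart.

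Sequence is shown for 5 stretches that separate the main protein-coding forms, since the results on transcripts turn on them. They are read from GENCODE M21 transcripts on GRCm38, 5′ to 3′ in the sense of the gene. Capitals mark the coding bases of the alternative stretch, and lower case marks the neighbouring coding bases or, at the end of the Meis1, Meis2 and shorter Pbx3 lines, the stop codon. In Meis1 (chr11:18884027-18884082, minus strand) and Meis2 (chr2:115866849-115866904, minus strand) the stretch belongs to a 95-base exon before the last exon and ends the reading frame.
Meis1 with the exon: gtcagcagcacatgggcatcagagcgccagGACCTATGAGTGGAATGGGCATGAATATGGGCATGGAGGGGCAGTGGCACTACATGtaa
Meis2 with the exon: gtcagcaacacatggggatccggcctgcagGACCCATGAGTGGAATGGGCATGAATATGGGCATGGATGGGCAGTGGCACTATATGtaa
The 56 coding bases of this exon were identical at 53 positions between both genes (94.6%).

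A 21-base stretch of Meis2 (chr2:115867359-115867379, minus strand) and a 51-base stretch of Meis3 (chr7:16178951-16179001, plus strand) lie at the start of an exon and add 7 and 17 whole codons. Their position at the 5′ end of an exon means that a choice of splice acceptor separates the forms.
Meis2 with the stretch: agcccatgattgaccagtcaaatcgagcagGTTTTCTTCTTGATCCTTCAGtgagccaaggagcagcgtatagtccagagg
Meis3 with the stretch: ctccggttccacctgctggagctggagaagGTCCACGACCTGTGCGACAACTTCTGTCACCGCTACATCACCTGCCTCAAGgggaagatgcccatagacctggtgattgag

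An exon of 113 bases in Pbx3 (chr2:34176749-34176861, minus strand) shifts the reading frame, so the form without it ends sooner. The capitals of the shorter form are the 44 coding bases that follow the skipped exon (chr2:34175911-34175954).
Pbx3 with the exon: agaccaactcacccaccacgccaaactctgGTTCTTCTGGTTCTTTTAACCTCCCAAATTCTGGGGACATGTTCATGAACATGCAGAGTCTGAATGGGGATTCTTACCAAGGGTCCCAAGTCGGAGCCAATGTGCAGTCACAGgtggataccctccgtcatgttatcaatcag
Pbx3 without the exon: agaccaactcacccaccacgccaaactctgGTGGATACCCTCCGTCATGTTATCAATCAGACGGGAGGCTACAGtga

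Meis genes gave the largest part of the summed level of these 8 genes. Summed over members, the 3 Meis genes reached 336 TPM (replicate 1) and 366 TPM (replicate 2), which is 62.4 ± 0.229% of the sum of the 8 genes. The 3 Pbx genes held 27.5 ± 0.313% and the 2 Pknox genes 10.1 ± 0.541%. All 8 genes were detected, meaning 1 TPM or more in both libraries, against 63.1% of the 21461 nuclear protein-coding genes.

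Meis1, needed for blood and heart development and expressed in cerebellar granule neuron precursors, stood highest: replicate 1 gave 128 TPM and replicate 2 gave 145 TPM (136 ± 11.8 TPM). It lies on chromosome 11 at 18879817 to 19018985 of GRCm38 on the minus strand. Of all nuclear protein-coding genes, 94.7% had a lower mean. Meis2, which acts in neural crest, heart and forebrain development, had 112.61 and 112.81 TPM, in the same order of libraries (chromosome 2, 115863064 to 116065839, minus strand). Its libraries were the closest of the Meis genes, with an SD of 0.141 TPM. Meis3, which in frog and zebrafish embryos takes part in hindbrain patterning, had 95.8 and 108 TPM (chromosome 7, 16175090 to 16186504, plus strand). The 3 Meis genes lay between 95.8 and 145 TPM in the 2 libraries, and the lowest of them, Meis3, was above 92.6% of coding genes.

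Pbx3, whose loss in mice leads to failure of breathing control at birth, was the highest of the Pbx members at 94.4 and 105 TPM (chromosome 2, 34171457 to 34373142, minus strand). It was below Meis3 within each library, but the means, 99.7 ± 7.58 TPM for Pbx3 and 102 ± 8.72 TPM for Meis3, differed by less than the spread between libraries. Pbx4, known in adult mice for expression in testis, had 47.4 and 47.8 TPM (chromosome 8, 69832491 to 69872292, plus strand). In zebrafish the gene named pbx4 is required for hindbrain segmentation. Pbx2, a broadly expressed member, was lowest of the 8 at 7.13 and 7.18 TPM (chromosome 17, 34591266 to 34597400, plus strand), above 52.7% of coding genes.

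The Pknox genes, also called Prep genes, were in the lower part of the order. For Pknox2 replicate 1 gave 26.6 TPM and replicate 2 gave 33.4 TPM (chromosome 9, 36890982 to 37147407, minus strand). Pknox1, without which mouse embryos fail early, had 25.4 and 27.9 TPM (chromosome 17, 31564734 to 31607693, plus strand). Pknox2 was above Pknox1 within each library, but replicate 2 of Pknox1 was above replicate 1 of Pknox2. From high to low the order was Meis1, Meis2, Meis3, Pbx3, Pbx4, Pknox2, Pknox1 and Pbx2, and of the neighbours only Meis3 with Pbx3 and Pknox2 with Pknox1 had library values that interleave.

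**Figure D1:**
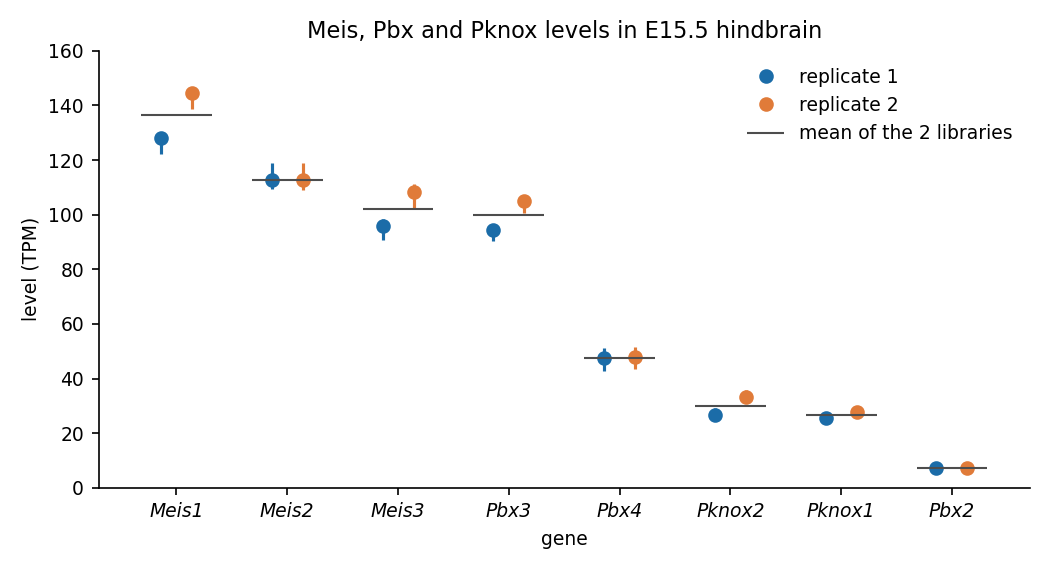
Level in TPM (vertical axis) of the 8 genes, ordered by mean; points are the 2 libraries, vertical lines the authors' deposited intervals of TPM, and horizontal lines the means. Meis1, Meis2, Meis3 and Pbx3 sit between 94.4 and 145 TPM, and Pbx2 sits near 7 TPM.

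The depth behind these levels ranged from 417 and 483 estimated counts for Pbx2 to 8957 and 9076 for Meis2, in replicate 1 and replicate 2. The gene counts were whole numbers within 0.005 for 6 of the 8 genes and not for Meis1 and Pbx2. Exons of Meis1 share 1029 bases with Gm37818 on the same strand, at 1.23 and 1.06 TPM, and 896 bases with Gm16140 on the opposite strand, at 2.62 and 1.41 TPM. Exons of Pbx2 share 227 bases with Gpsm3 on the same strand, at 3.34 and 3.33 TPM. Pknox1 shares 155 exon bases with a gene on the opposite strand that was not analysed here. Whether counting used strand is not given in the sources used here, so reads in these shared bases are uncertain.

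The level of Pbx4 depended on the length used for it. Its deposited effective length, an average over its transcripts weighted by abundance, was 593 nt in replicate 1 and 607 nt in replicate 2, while the only transcript with a complete coding frame, Pbx4-201, is 1560 nt long. Rescaled to that transcript, Pbx4 had 19.6 ± 0.427 TPM, against 47.6 ± 0.276 TPM as deposited, a factor of 2.44. The same rescaling to the leading coding transcript moved the other 7 genes by factors of 1.05 to 1.26, Pknox2 least and Pbx2 most. On that scale Pbx4 came below Pknox1 at 23.9 ± 1.98 TPM. Meis2, Meis3 and Pbx3 then had 93.7 ± 2.74, 93.3 ± 5.40 and 92.0 ± 5.97 TPM, which did not differ beyond their spread. This rescaling was chosen after the values were seen.

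**Figure D2:**
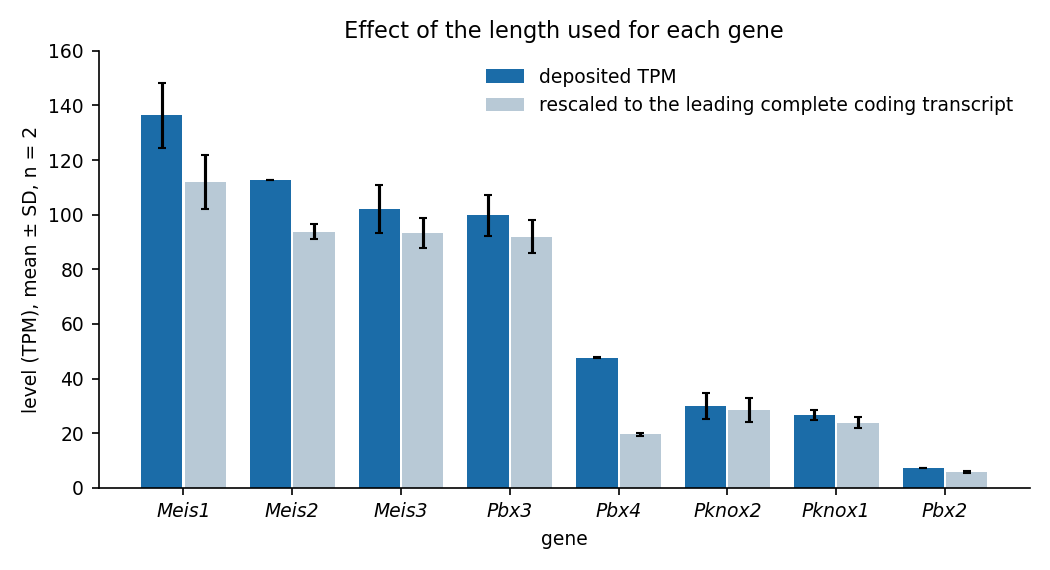
Mean level in TPM ± SD (n = 2, vertical axis) of each gene as deposited (left, dark bars) and rescaled to the length of its leading complete coding transcript (right, light bars). Pbx4 stands at 19.6 TPM rescaled and 47.6 TPM as deposited, while the other genes change by at most 1.26-fold.

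Genes differed in how much of their RNA was assigned to transcripts that encode a full protein. Of the 80 member transcripts, 58 were above 0 TPM in both libraries, 14 were at 0 in both and 8 at 0 in one library. The share of a gene's TPM in transcripts with a complete coding frame had a median of 85.2% over the 8 genes and of 86.5% over the 9877 detected coding genes with several transcripts. It was 92.7 ± 0.245% for Pknox2, 89.3 ± 0.867% for Pbx3, 88.0 ± 1.53% for Pknox1, 85.5 ± 6.08% for Pbx2 and 84.9 ± 0.941% for Meis2. Meis3 had 63.4 ± 5.22%, with 24.7 ± 2.06% in transcripts annotated with a retained intron. Under 50% were 2 of the 8 genes, Meis1 at 43.7 ± 1.67% and Pbx4 at 2.04 ± 0.656%, beside 16.5% of all such genes. By estimated counts in place of TPM the share of Meis1 was 54.5% in replicate 1 and 56.5% in replicate 2, which is above 50%, and that of Pbx4 was 3.90% and 6.06%. Pbx4 stood near the lower end, since 0.739% of those genes had a share as low or lower.

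**Figure D3:**
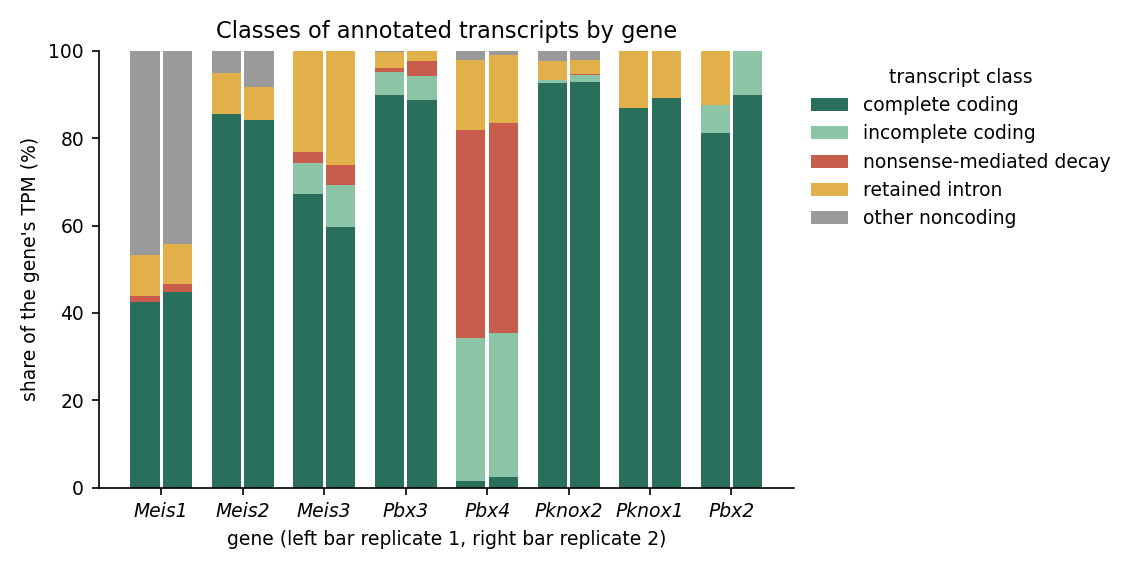
Share of each gene's TPM (vertical axis, percent) by annotated class of transcript, with replicate 1 as the left bar and replicate 2 as the right bar of each pair. Complete coding transcripts fill most of every bar except those of Meis1, near 44%, and Pbx4, near 2%.

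For Pbx4 the coding form Pbx4-201, of 378 codons, had 0.75 TPM (replicate 1) and 1.2 TPM (replicate 2), from 28.4 and 48.05 estimated counts. The leading form was Pbx4-202, a 375-base fragment with an incomplete frame, at 15.5 and 15.8 TPM. By estimated counts Pbx4-205 led instead, with 248 and 322 counts against 111 and 119 for Pbx4-202. Forms annotated for nonsense-mediated decay, the pathway that removes transcripts with an early stop codon, held 47.8 ± 0.287% of TPM and 65.5% and 64.6% of the counts. Of these, Pbx4-205 had 11.5 and 14.1 TPM and Pbx4-204 8.17 and 6.71 TPM. Pbx4-205 lacks the third and the fourth exon of the coding form (239 and 191 bases), and transcripts with the third exon (chr8:69864312-69864550) held 2.42 ± 0.765% of the TPM that includes or skips it. Values for Pbx4 as a gene therefore come mostly from forms without a full frame, in both libraries alike.

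For Meis1 a noncoding form led. Meis1-203, of 2008 bases, had 59.8 TPM (replicate 1) and 63.8 TPM (replicate 2), which is 45.4 ± 1.82% of the gene. It starts inside the gene and contains 687 of the 1170 coding bases of Meis1-201, in 7 of its 12 coding exons. Meis1-201, of 390 codons, had 51.0 and 62.5 TPM. By estimated counts in place of TPM the order turned, with 4087 and 5288 counts for the longer Meis1-201 and 2952 and 3328 for Meis1-203. A noncoding or incomplete form led in 2 of the 8 genes, Meis1 and Pbx4. By the leader in replicate 1, this held for 13.1% of detected coding genes with several transcripts.

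Meis1 and Meis2 both used mainly the exon before the last, whose sequence is given above. These forms differ in the C-terminal tail after the homeodomain, and the exon gives the shorter tail. In Meis1, transcripts with the exon held 97.3% of the informative TPM in replicate 1 and 98.0% in replicate 2. They summed to 110.75 and 126.29 TPM, of which 59.8 and 63.8 TPM came from Meis1-203, annotated as noncoding. The 3 forms without the exon summed to 3.05 and 2.64 TPM, of which Meis1-209, the complete coding one with 465 codons, had 1.29 and 0.26 TPM. In Meis2 the exon was included in 82.6% and 81.3%, and the longest form without it, Meis2-201 of 477 codons, had 15.4 and 18.6 TPM. Inclusion thus averaged 97.6 ± 0.447% in Meis1 and 81.9 ± 0.942% in Meis2, a gap larger than the spread between libraries for either gene.

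The 21-base stretch of Meis2 was included in 51.6% of the informative TPM in replicate 1 and 52.4% in replicate 2, so both acceptors were used to a similar extent. The 4 leading forms of Meis2 combine these choices. Meis2-205, of 401 codons with exon and stretch, had 29.7 and 24.5 TPM. Meis2-202, of 393 codons with the exon and without the stretch, had 25.6 and 28.6 TPM. Meis2-206, of 394 codons, also with the exon alone, had 20.5 and 19.6 TPM, and Meis2-201 has the stretch alone. The leading form was Meis2-205 in replicate 1 and Meis2-202 in replicate 2, and Meis2 was the only one of the 8 genes whose leader differed. The same leader in both libraries was seen in 7 of 8 genes, beside 92.2% of detected coding genes with several transcripts.

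Meis2 also used 2 first exons. Among its complete coding transcripts, those that begin at the upstream first exon, which ends at base 116064802, held 70.0% in replicate 1 and 66.1% in replicate 2. Those from the downstream first exon, which ends 710 bases further on at 116064092, held 29.98% and 33.9%. In Pbx2 the downstream first exon gave 70.3% and 73.2%, as Pbx2-201 of 430 codons had 4.08 and 4.72 TPM. The upstream one gave Pbx2-203, of 348 codons, at 1.72 and 1.73 TPM. The whole upstream first exon of Pbx2-203, 227 bases, lies inside an exon of Gpsm3, so its value is uncertain.

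In Meis3 the 51-base stretch was included in 76.2% of the informative TPM in replicate 1 and 73.7% in replicate 2. Meis3-201, of 378 codons and with the stretch, had 49.0 and 47.6 TPM. Meis3-205, of 361 codons and without it, had 15.3 and 17.0 TPM. Between them came Meis3-202, annotated with a retained intron, at 17.0 and 20.4 TPM.

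In Pbx3 the shorter protein form led. Pbx3-202, of 351 codons and without the 113-base exon, had 54.6 TPM (replicate 1) and 63.1 TPM (replicate 2). Pbx3-201, of 434 codons and with it, had 30.2 and 30.1 TPM. Inclusion of the exon was 35.9% and 34.5%. The PBX3 forms are known to share the homeodomain and to differ in the C-terminal tail. Replicate 1 was below replicate 2 in the shorter form, while the longer form had nearly the same level in both.

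In Pknox1 and in Pknox2 all complete coding transcripts encode the same number of codons in M21. For Pknox1 none of them was quantified at its M21 length. Pknox1-201 had 4172 nt against 4252 nt in M21, so its codons may not be those of the quantified form. Pknox1-201, of 436 codons, held 78.1% of Pknox1 TPM in replicate 1 and 84.0% in replicate 2. Pknox2-201 and Pknox2-202 both encode 474 codons and had 19.4 and 22.9 TPM and 5.19 and 8.17 TPM. Among their differences in M21 is an exon of 105 bases ahead of the start codon (chr9:36987168-36987272), included in 80.0% and 73.5%. These values are uncertain, since Pknox2-201 was quantified at 3514 nt and has 3632 nt in M21. Whether the quantified form held this exon was not tested.

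**Figure D4:**
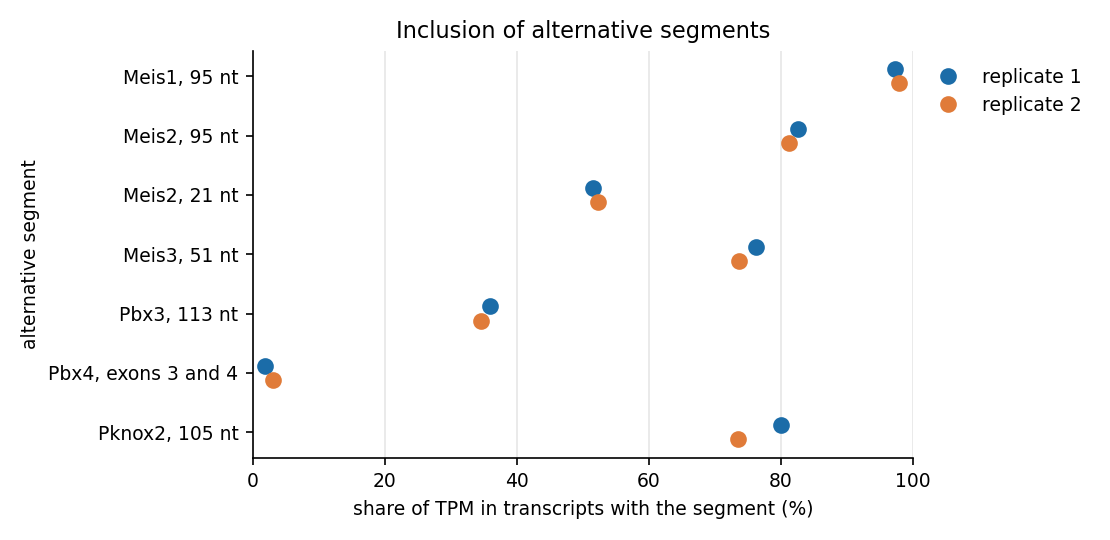
Share of TPM in transcripts that include an alternative segment, of all transcripts that include or skip it (horizontal axis, percent), for the segments named in the text; points are the 2 libraries. The 95-base exon of Meis1 lies near 98%, the 21-base stretch of Meis2 near 52%, the 113-base exon of Pbx3 near 35% and the third and the fourth exon of Pbx4 under 3%.

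The 2 pools differed little in the cofactor genes. The ratio is replicate 1 over replicate 2 of counts after TMM scaling, a scaling to the typical gene, with 95% exact (Clopper-Pearson) intervals that cover counting error only. No member passed 1.5-fold, beside 6.48% of the 17048 genes averaging at least 20 counts (4.25% higher and 2.23% lower in replicate 1). Pknox2 differed most, at a log2 ratio of -0.29 (interval -0.37 to -0.21). Meis1 had -0.15 (-0.19 to -0.11), Pknox1 -0.14 (-0.22 to -0.06), Pbx3 -0.10 (-0.15 to -0.05) and Meis3 -0.09 (-0.15 to -0.02). Meis2 was the only gene above 0, at 0.09 (0.05 to 0.13), while its TPM were nearly equal, with an effective length of 3073 nt in replicate 1 and 2944 nt in replicate 2. The intervals of Pbx2 at -0.10 and Pbx4 at -0.01 included 0.

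All 8 ratios lay within the SD of 0.40 across the genes compared. Their median size was 0.10 on the log2 scale, and that of the 9956 genes in the same range of counts was 0.08. The SD over those 9956 genes was 0.17, and Pknox2 was the only member whose ratio lay outside it. Below 0 were 7 of the 8 genes, beside 50.5% of the genes compared, but scaling to spike-in totals left 3 below 0, with Meis3, Pbx2, Pbx3 and Pbx4 turning to the other side, and ratios of TPM put Meis2 below 0 as well. Meis1, Pknox1 and Pknox2 were below 0 under every scaling tried, while the sign of the other 5 turned under at least 1 of them.

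**Figure D5:**
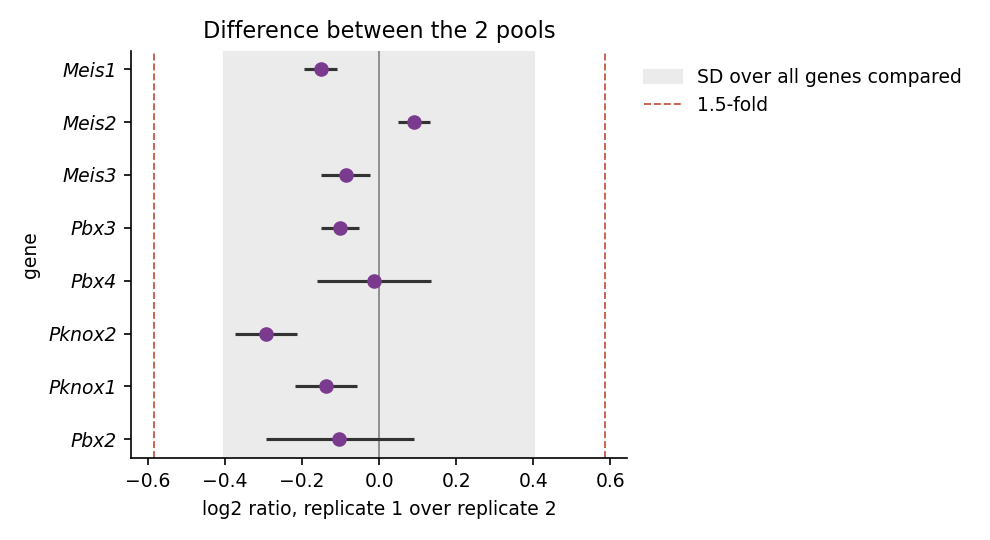
Log2 ratio of replicate 1 over replicate 2 (horizontal axis) for each gene, with 95% exact intervals of counting error as lines; the grey band is the SD of 0.40 over all genes compared and dashed lines mark 1.5-fold. All points lie inside the band, between -0.29 for Pknox2 and 0.09 for Meis2.

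Some marker lists of neighbouring tissue differed between the pools. Forebrain markers summed to 29.5 TPM (replicate 1) and 53.0 TPM (replicate 2) over 11 genes. Most of this was Neurod6, at 23.6 and 35.4 TPM, which did not pass 1.5-fold (log2 ratio -0.55). Of the 9 with enough counts 5 passed 1.5-fold, beside 6.48% of all genes compared, and each of the 5 had at most 5.52 TPM in either library. The 10 caudal Hox genes of spinal cord summed to 47.9 and 98.3 TPM, with Hoxc10 at 0 in both, and 6 sensory ganglion genes to 144 and 102 TPM. Sums of the other lists were 113 and 131 TPM for hindbrain, 107 and 82.3 for midbrain, 269 and 259 for granule cells, 2553 and 2585 for radial glia and 3074 and 3170 for neurons. They were 183 and 181 TPM for endothelium, 15774 and 12387 for blood, 540.03 and 442 for meninges and 977 and 1321 for choroid plexus. Of genes with enough counts, 4 of 6 caudal Hox, 4 of 6 sensory ganglion and 2 of 6 midbrain genes passed 1.5-fold. So did 1 of 7 granule cell, 1 of 6 meninges and 1 of 5 choroid plexus genes, and none of the remaining lists. The part of these tissues in the ratios of the cofactor genes was not tested.

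Other TALE genes were lower than the leading cofactors. Of 9 such genes in the list (Irx, Tgif and Mkx), 8 were detected, with a median of 12.3 ± 0.735 TPM, against 63.1% of nuclear coding genes detected. Irx2, of the Iroquois group of neural patterning genes, had 30.4 and 28.4 TPM, Irx3 21.1 and 15.4 TPM, and the repressor gene Tgif2 18.0 and 17.2 TPM. None of the 9 reached the level of Pbx4 as deposited, 47.6 TPM. Rescaled to its coding transcript Pbx4 had 19.6 TPM, while the 9 genes were not rescaled. The lower cofactors overlapped with this list. Irx2 was above Pknox1, at 25.4 and 27.9 TPM, in both libraries, and the list median was above Pbx2, at 7.13 and 7.18 TPM. Between the pools 3 of the 9 passed 1.5-fold (Irx4, Irx5 and Irx6, named after their values were seen), beside 6.48% of all genes compared.

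The HOX partners of groups 1 to 5 were detected in 13 of 15 cases, against 63.1% of nuclear coding genes, and 1 of the 14 with enough counts passed 1.5-fold, Hoxd1, named after its values were seen. Their TPM summed to 359 in replicate 1 and 405 in replicate 2, and the 8 cofactor genes to 537 and 587. The highest were Hoxb5 at 92.0 and 113 TPM, Hoxa5 at 83.8 and 93.2 TPM and Hoxc4 at 45.5 and 51.6 TPM. Meis1 as a gene, at 128 and 145 TPM, was above each of these genes in both libraries. Its complete coding transcripts alone had 54.45 and 64.95 TPM, below Hoxb5 and Hoxa5 as genes. The HOX values were not split by transcript class.

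Genes whose products bind or modify TALE proteins or their complexes were all detected, 14 of 14 against 63.1% of nuclear coding genes, with a median of 39.2 ± 1.42 TPM. None of them passed 1.5-fold between the pools, beside 6.48% of all genes compared. Ddb1, part of a ubiquitin ligase that with cereblon takes MEIS2 as a substrate, had 168 and 165 TPM. The corepressor genes Ncor1 and Hdac3 had 144 and 142 TPM and 113 and 123 TPM.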

How the data were processed

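Per the file headers and accompanying notes, the authors quantified each library on mm10 with GENCODE M4 from transcriptome alignments, without pooling. For the aligner, quantifier and use of strand, names and settings were not given in the sources used here. Deposited expected counts are estimated reads per gene or transcript, deposited TPM is scaled over all features of a file, and deposited FPKM served as an alternative for detection. The deposited interval bounds of TPM are a signal given by the authors, and the deposited isoform percent served as an alternative for leaders. Effective length was 99 nt below transcript length throughout.

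Symbols, classes, coordinates and sequences came from GENCODE M21 on GRCm38, the assembly of mm10, by identifier without version. Of the 80 member transcripts 79 matched and 73 had the same length, among them every transcript whose sequence is printed. The rest belong to Pknox1 and Pknox2, where 2 of 7 and 10 of 12 had the same length. A gene was taken as detected from 1 TPM upward in each of both libraries. Transcripts were named where they led or had a mean share of 10% or more, and in other lists the 3 highest genes. Inclusion is the TPM of transcripts holding a segment with its own exon ends, over that plus the TPM of those with an intron across it. Counts of genes, spike-ins left out (2.86% and 3.09% of counts), were normalised by TMM (edgeR 4.0.16, R 4.3.3) and given a prior count of 0.5. The ratio was tested on simulated counts that held counting error only, so that test does not cover the larger spread between these libraries. With 1 group of 2 libraries there was no test between conditions and no p-value; chi-square per degree of freedom between the libraries was 12.4, so they were taken as separate samples. The members and lists were chosen with earlier results of these data known, and some listed marker genes are not reported here and were left out of the sums and counts. Alternatives were other scalings (DESeq2 1.42.0 size factors, totals, spike-ins), other minimums, posterior means, transcript counts and each library alone.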

Additional observations from a re-analysis of the deposited data

How the results depend on the processing

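All 8 genes remained detected at minimums of 0.5 and 2 TPM, at 1 FPKM, on posterior means, on the lower bound of TPM, on TPM over nuclear coding genes and in each library alone. The minimum of 0.5 TPM and each library alone could not lose a gene already at 1 TPM in both. No member passed 1.5-fold under any of the 7 other scalings, pseudocounts and count minimums. The same leading transcript was found in 7 of 8 genes on posterior means, isoform percent and at 5 TPM, and in 8 of 8 by estimated counts. The minimum of 5 TPM kept the same 8 genes, so it could not change the count. The Meis share of the summed TPM, 62.4%, was 63.5% by estimated counts and between 62.3% and 62.6% when either replicate was left out. Inclusion of the alternative segments moved by at most 3.39 percentage points on posterior means or counts, alternatives chosen after seeing the data; the largest move was for Pbx4, to 5.81%. Mean levels moved by more than the SD in 17 cases and not in 23 over the other settings. The 23 include every case that left out 1 replicate. With 2 libraries such a case cannot move the mean past the SD, so it does not show stability. By the same rule, shares of the leading transcript moved in 9 cases and not in 7, and inclusion in 7 and not in 7. By estimated counts the leader's share fell from 32.8% to 15.1% for Pbx4 and from 45.4% to 34.1% for Meis1, and rose for the other genes. Log2 ratios left their counting interval in 12 cases and not in 28. The signs of small ratios that turned are given with the ratios, and the count minimum does not enter a member's own ratio. No paired analysis was possible because there was 1 group. Estimates for transcripts that share most of their exons are limited by the reads that tell them apart, and intervals cover counting error only.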
